A study of Mus musculus with 24 samples.

Results

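The genes described here are 10 regulators and effectors of the integrated stress response in mouse liver: Atf4, Atf3, Nupr1, Trib3, Ppp1r15a, Chac1, Sesn2, Fgf21, Gdf15 and Ddit4. Members were taken as the probes that the array annotation pairs with 1 of these symbols. Of the 10 genes, 9 have a probe among the 16593 genes named on the array, and Gdf15 was not analysed here because no probe carried its name. A probe counted as detected at a detection p-value under 0.01, and genes detected on at least 2 of the 24 arrays were tested. By this filter 8 members stand among 8969 genes tested, and Sesn2, with 2 probes, does not.

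In the integrated stress response, kinases that sense endoplasmic reticulum stress, amino acid shortage, heme shortage or viral RNA phosphorylate the translation factor eIF2. General protein synthesis then falls while the Atf4 mRNA is translated more, and the ATF4 protein, with partners such as CHOP (gene Ddit3), switches on genes for amino acid supply, redox balance, feedback and cell death. In the liver the pathway also drives secreted factors, of which FGF21 is the best known. An array measures mRNA and not the phosphorylation of eIF2 or the translation of Atf4.

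All 24 samples came from 9-month-old male C57BL/6J mice, either wild-type or Chop-/-, the latter lacking most of the CHOP reading frame in every tissue after repeated backcrossing. As pups of 15 days they had received an intraperitoneal injection of either PBS or the hepatocarcinogen diethylnitrosamine (DEN, 25 mg/kg). Expression was read on Illumina MouseRef-8 arrays, 1 array a sample. The groups were whole livers after PBS (3 wild-type, 3 Chop-/-), whole livers after DEN (6 wild-type, 7 Chop-/-) and large tumors from DEN-injected mice (3 wild-type, 2 Chop-/-). The livers after DEN held nodular and uninvolved tissue together. The sources used here do not say whether a tumor and a liver shared a mouse, so p-values measure the spread between these samples.

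Levels are log2 values after background correction and quantile normalization, on which the dimmest detected probe of an array lay between 5.02 and 5.76. Between 8953 and 11248 probes were detected per array. The 19 liver arrays correlated with the other arrays at a median r of 0.967 to 0.985, and the 5 tumor arrays at 0.848 to 0.953. The array names carry a letter, A, B or C, that divides them into 3 sets. Wild-type tumors lie in A and B, and Chop-/- tumors in B and C, and a tumor is called below by its letter. Ddit3, the targeted gene, was detected on all 12 wild-type arrays and on 0 of 12 Chop-/- arrays, at 6.09 to 8.90 against 4.32 to 4.80. In RNA of whole tissue, fewer cells of a type and less RNA per cell cannot be told apart.

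Promoter stretches are shown for the members whose window of 250 bases before to 50 bases after the RefSeq start (GRCm38.p6) holds a site of the ATF4 family upstream of that start. The searched motifs were TGATGCAA, the core of the C/EBP-ATF response element, and TGACGTCA, the cyclic AMP response element. Both strands were searched, and matches of a motif that began at the same base were counted once. The first occurs in 0.895% and the second in 1.79% of 32851 promoter windows. Capitals mark the match, each stretch runs 5′ to 3′ along the gene's strand, and TTGCATCA is the first motif read from the other strand. The Atf3 stretch is chr1:191183390-191183489 (minus strand), that of Nupr1 chr7:126625527-126625626 (minus), of Chac1 chr2:119351003-119351102 (plus), of Fgf21 chr7:45615576-45615675 (minus) and of Ppp1r15a chr7:45526269-45526368 (minus).
Atf3: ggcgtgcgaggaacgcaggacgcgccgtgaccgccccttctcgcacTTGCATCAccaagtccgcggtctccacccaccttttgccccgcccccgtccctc
Nupr1: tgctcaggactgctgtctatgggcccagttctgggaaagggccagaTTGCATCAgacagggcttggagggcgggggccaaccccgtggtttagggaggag
Chac1: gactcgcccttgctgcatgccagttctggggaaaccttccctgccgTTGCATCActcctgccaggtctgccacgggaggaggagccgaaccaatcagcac
Fgf21: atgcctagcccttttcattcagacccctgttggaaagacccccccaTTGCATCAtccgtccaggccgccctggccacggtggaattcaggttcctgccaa
Ppp1r15a: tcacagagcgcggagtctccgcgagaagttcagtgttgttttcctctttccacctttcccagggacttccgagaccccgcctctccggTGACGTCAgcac

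The first motif begins 110 bases before the start in Atf3 and in Nupr1, 139 before it in Fgf21 and 193 before it in Chac1. The second begins 12 bases before the start of Ppp1r15a. With any base at position 6 (TGATGNAA, in 3.97% of windows) Trib3 also has a match, 14 bases after its start. Neither motif is in the windows of Atf4, Sesn2, Gdf15 or Ddit4. A match describes these letters and was not tested as a binding site.

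Several of these genes were far higher in tumors than in livers, and no member differed past the threshold between livers of the 2 genotypes. Atf3, Nupr1, Trib3, Fgf21 and Ddit4 rose in wild-type tumors, 5 of 8 members tested at an adjusted p under 0.05, both against PBS livers (10.8% of all genes tested were higher, 8.42% lower) and against DEN livers (12.1% higher, 10.2% lower). Atf3, Nupr1, Trib3, Ddit4 and Atf4 rose in Chop-/- tumors against Chop-/- PBS livers (21.1% of all genes higher, 22.4% lower), and against DEN livers (19.1% higher, 20.3% lower) Ppp1r15a made 6 of 8. With the letter C Chop-/- tumor left out, the Atf4 difference fell to 0.76 from DEN livers and to 0.53 from PBS livers. That of Ppp1r15a from DEN livers fell to 0.06. Leaving out 1 of the 2 Chop-/- tumors leaves a group of 1. Calls from such a fit, given below for the lists, hold no spread between Chop-/- tumors. No member fell in these comparisons. The median log2 difference of the 8 members from DEN livers was 1.97 in wild-type and 1.09 in Chop-/- tumors, where that of all genes was -0.01 and -0.05. Atf3 and Trib3 were detected on the 5 tumor arrays and on 0 of 19 liver arrays, so they passed the filter through the tumors and had to differ. Both stand in the counts and medians above and among the genes named next, so these are in part set by the filter. Atf3, Nupr1, Trib3 and Ddit4 lay higher in all 5 tumors than in all 19 livers, as did 3.84% of all genes tested. The comparisons with PBS and with DEN livers share their tumor samples.

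**Figure D1:**
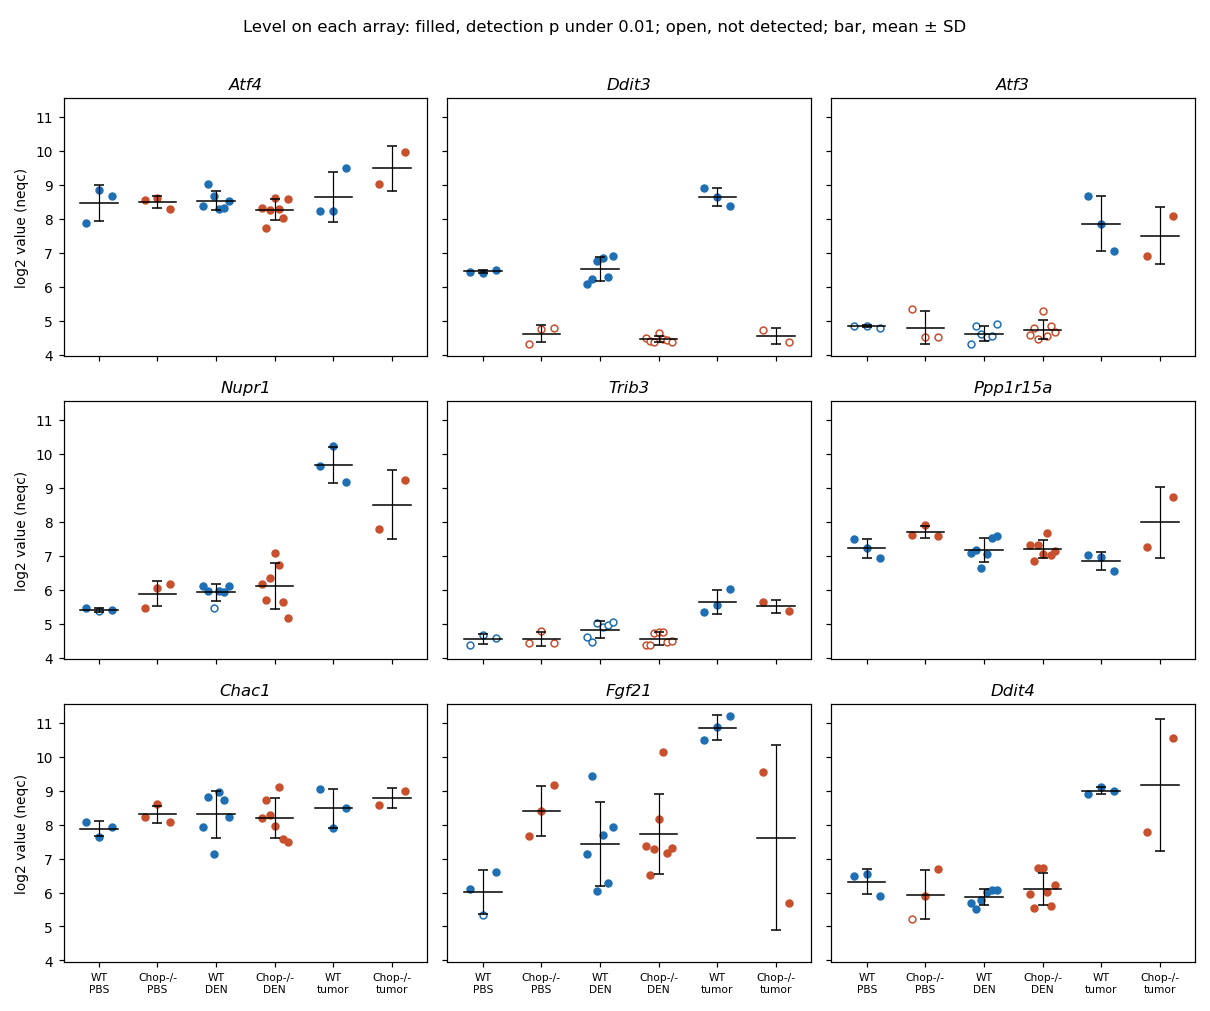
Log2 value of Ddit3 and the 8 tested members on each array (y axis) by group (x axis). Filled points were detected and open points were not, and bars give the mean and SD. Atf3, Nupr1, Trib3 and Ddit4 lie higher in all 5 tumors than in every liver, and Fgf21 stands at 10.48 to 11.20 in the wild-type tumors and at 5.68 and 9.54 in the Chop-/- tumors.

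Atf4 encodes the transcription factor at the center of the pathway and was detected on all 24 arrays. Its log2 values were 7.87, 8.67 and 8.85 in wild-type PBS livers and 8.29, 8.55 and 8.62 in Chop-/- PBS livers. Over DEN livers it ran from 8.30 with a median of 8.44 to 9.03 in wild-type and from 7.74 with a median of 8.30 to 8.63 in Chop-/-. Wild-type tumors stood at 8.22, 8.24 and 9.50, and Chop-/- tumors at 9.02 (letter B) and 9.96 (letter C). Both Chop-/- tumors thus lay above every Chop-/- liver, whereas wild-type tumors and livers overlapped.

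Atf4 in Chop-/- tumors exceeded Chop-/- DEN livers by 1.23 ± 0.31 (log2, SE; 2.34-fold; adjusted p = 0.00313) and PBS livers by 1.00 ± 0.35 (adjusted p = 0.0253). In wild-type the same differences were 0.12 ± 0.27 and 0.19 ± 0.32 (adjusted p = 0.818 and 0.744). The Chop-/- rise rested in part on the letter C tumor: without it the difference from DEN livers was 0.76 and that from PBS livers 0.53. Without the letter C Chop-/- PBS liver the latter was 0.91 (adjusted p = 0.0738), and it also missed the threshold when the compared groups alone were fitted (adjusted p = 0.0572), with array weights (0.137) and without moderation (0.178). The genotypes' tumor effects on Atf4 differed by 1.11 with a 95% interval of 0.25 to 1.97 (adjusted p = 0.116), which did not pass.

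Atf3, a stress-induced bZIP repressor and activator that ATF4 switches on, was not detected in any liver. Its liver values spanned 4.33 to 5.35, the highest in a Chop-/- PBS liver. Wild-type tumors reached 7.05, 7.85 and 8.67, and Chop-/- tumors 6.92 (letter B) and 8.10 (letter C). Every tumor stood above every liver, and tumors of the 2 genotypes overlapped. Since the livers give only a bound, on these values Atf3 was at least 5.76-fold higher in wild-type tumors than in wild-type DEN livers. In Chop-/- tumors it was at least 4.76-fold higher than in Chop-/- DEN livers. Atf3 passed the filter through the tumors and had to differ, so no p-value is given for it here. Bounds set the mean of the tumors against, per liver array, the higher of the probe's own value and the dimmest detected probe. Against PBS livers the bounds were 5.42-fold and 4.24-fold. The sizes depend on the scale: on the log2 values the authors deposited, the Atf3 differences from DEN livers were smaller than these bounds in both genotypes.

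Nupr1 encodes a small stress-induced regulator of transcription that ATF4 activates. Wild-type PBS livers held 5.36, 5.40 and 5.47, of which 2 of 3 were detected, and Chop-/- PBS livers 5.45, 6.04 and 6.15. Wild-type DEN livers ran from 5.45 with a median of 5.95 to 6.12, and Chop-/- DEN livers from 5.15 with a median of 6.17 to 7.07. Wild-type tumors reached 9.16, 9.63 and 10.22, and Chop-/- tumors 7.78 (letter B) and 9.23 (letter C). All 5 tumors stood above all 19 livers, and the 2 genotypes overlapped in tumors through the letter C tumor.

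The Nupr1 difference from DEN livers was 3.75 ± 0.34 in wild-type tumors (13.5-fold, adjusted p = 2.96e-07) and 2.39 ± 0.39 in Chop-/- tumors (5.25-fold, adjusted p = 4.13e-05). The Chop-/- difference was 1.67 without the letter C tumor and 3.12 without the letter B tumor. Against PBS livers, which lay close to background, the fitted log2 difference was 4.26 in wild-type and 2.62 in Chop-/- tumors. The wild-type value ran from 2.79 to 4.91 over the alternative settings. Between tumors of the 2 genotypes the level was 1.16 lower in Chop-/- (95% interval -2.07 to -0.26, adjusted p = 0.0873). The effect of a tumor differed by -1.36 between genotypes, with an interval of -2.42 to -0.30 and an adjusted p of 0.122.

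Trib3, a pseudokinase induced by ATF4 and CHOP that feeds back on both, was at background in every liver, from 4.36 to 5.05. Wild-type tumors held 5.34, 5.56 and 6.01 and Chop-/- tumors 5.65 (letter B) and 5.37 (letter C), with all 5 above all livers. These levels were just over background, and the bounds were accordingly small. On these values Trib3 was at least 1.24-fold higher in wild-type tumors than in DEN livers and at least 1.19-fold higher in Chop-/- tumors. Trib3 also passed the filter through the tumors and had to differ, so no p-value is given for it here. Tumors of the 2 genotypes overlapped, at a difference of -0.13 with an interval from -0.56 to 0.31.

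Ppp1r15a (GADD34) directs a phosphatase to eIF2 and so ends the response. Wild-type PBS livers held 6.92, 7.23 and 7.50 and Chop-/- PBS livers 7.57, 7.62 and 7.89. DEN livers spanned 6.63 to 7.57 around a median of 7.13 in wild-type and 6.84 to 7.65, also around 7.13, in Chop-/-. Wild-type tumors stood at 6.54, 6.95 and 7.02, and Chop-/- tumors at 7.24 (letter B) and 8.72 (letter C). Chop-/- PBS livers and Chop-/- tumors both lay above their wild-type counterparts without overlap, while DEN livers overlapped. Groups that do not overlap made up 14.7% of all genes tested between PBS livers and 30.3% between tumors.

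Ppp1r15a was 1.14 ± 0.32 higher in Chop-/- than in wild-type tumors (2.21-fold, adjusted p = 0.0251), the 1 member of 8 that rose between tumors, where 4.43% of all genes tested did. Without the letter C tumor the difference was 0.41 and without the letter B tumor 1.88. The difference fell short of the threshold without 1 of the letter A wild-type tumors or without that of letter B, at adjusted p-values of 0.0551 and 0.058. Against Chop-/- DEN livers the rise in Chop-/- tumors was 0.79 ± 0.28 (adjusted p = 0.0283), and the groups overlapped. Without the letter C tumor it was 0.06. With both tumors it missed the threshold when the 2 groups alone were fitted (adjusted p = 0.0777), without moderation (0.142) and with array weights (0.174). In wild-type the tumor values were lower than in DEN livers by 0.33 ± 0.25, which did not pass (adjusted p = 0.382).

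Chac1 encodes an enzyme that degrades glutathione and is a target of ATF4, CHOP and ATF3. It was detected on all 24 arrays, and no comparison passed the threshold. PBS livers held 7.65, 7.92 and 8.09 in wild-type and 8.09, 8.21 and 8.59 in Chop-/-. DEN livers spread widely, from 7.14 to 8.95 in wild-type and from 7.50 to 9.11 in Chop-/-. Tumors stood at 7.90, 8.50 and 9.04 in wild-type and at 8.58 and 9.00 in Chop-/-, and overlapped the DEN livers in both genotypes. The difference of tumors from DEN livers was 0.18 (95% interval -0.56 to 0.92) in wild-type and 0.60 (-0.23 to 1.44) in Chop-/-. The promoter stretch of Chac1 holds the same motif as those of Atf3, Nupr1 and Fgf21. A relation of the motif to the levels was not tested.

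Ddit4 (REDD1), an inhibitor of the growth kinase complex mTORC1, had the lowest SD over wild-type tumors of the 8 tested members. Livers of all 4 groups lay between 5.23 and 6.72. Wild-type tumors held 8.89, 9.00 and 9.09, and Chop-/- tumors 7.78 (letter B) and 10.53 (letter C), on either side of the wild-type tumors. All 5 tumors were above all livers. The difference from DEN livers was 3.14 ± 0.40 in wild-type (8.79-fold, adjusted p = 7.8e-06) and 3.05 ± 0.45 in Chop-/- (8.26-fold, adjusted p = 1.45e-05). With the letter B tumor alone the Chop-/- difference was 1.67 and with the letter C tumor alone 4.42. Its promoter window holds neither motif.

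Sesn2, a leucine sensor that restrains mTORC1, was not detected on any array by either of its 2 probes. Its values ran from 4.25 to 5.21, so no difference between groups can be read from them.

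Fgf21, the secreted liver hormone of the fasting and stress responses, varied more than any other member in livers. Wild-type PBS livers held 5.33 (not detected), 6.10 and 6.61, and Chop-/- PBS livers 7.67, 8.39 and 9.15. Wild-type DEN livers ran from 6.03 with a median of 7.42 to 9.44, and Chop-/- DEN livers from 6.53 with a median of 7.32 to 10.15. Wild-type tumors reached 10.48, 10.88 and 11.20, whereas Chop-/- tumors held 9.54 (letter B) and 5.68 (letter C). Every wild-type tumor was thus above every other sample of the series, and the 2 Chop-/- tumors fell among or below the Chop-/- livers.

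Fgf21 in wild-type tumors exceeded PBS livers by 4.84 ± 0.87 (28.6-fold, adjusted p = 0.000407) and DEN livers by 3.43 ± 0.76 (10.8-fold, adjusted p = 0.00196). In Chop-/- tumors the difference from DEN livers was -0.10 ± 0.86 (95% interval -1.88 to 1.67) and that from PBS livers -0.79 (-2.81 to 1.23). Between tumors Fgf21 was lower in Chop-/- by 3.24 ± 0.98 (9.45-fold, adjusted p = 0.0352), the 1 member that fell, where 6.12% of all genes did, and the groups did not overlap (exact permutation test, two-sided p = 0.1, the smallest that 2 against 3 samples allow). Without the letter C tumor the difference was -1.31 and without the letter B tumor -5.17. Leaving out any 1 of the 3 wild-type tumors kept a difference of -3.43 to -3.07 but took the adjusted p to 0.061 or above.

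**Figure D2:**
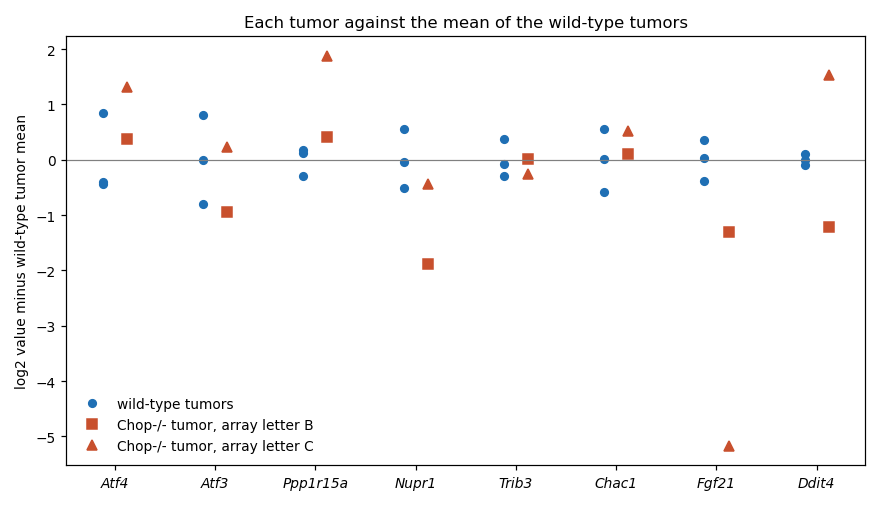
Log2 value of each tumor minus the mean of the 3 wild-type tumors (y axis) for the 8 tested members (x axis). Circles are wild-type tumors, the square is the letter B and the triangle the letter C Chop-/- tumor. Fgf21 lies below all wild-type tumors in both Chop-/- tumors, and the 2 Chop-/- tumors stand on opposite sides of the wild-type tumors for Ddit4.

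Whether the tumor changed a member differently in the 2 genotypes was tested as an interaction, with DEN livers as the base. With limma no member passed, at an adjusted p of 0.0745 for Fgf21 (-3.53, 95% interval -5.90 to -1.17) and 0.0818 for Ppp1r15a (1.12, 0.35 to 1.90), where 4.69% of all genes did. At an unadjusted p under 0.05 there were 4 of 8 members, Atf4, Nupr1, Ppp1r15a and Fgf21, where 21.8% of all genes were past it. The same 4 members also passed more than 1.5-fold at that p, against 18.9% of all genes, and between Chop-/- and wild-type tumors they did so against 20.4%. For Atf3, Trib3, Chac1 and Ddit4 the differences between the genotypes' tumor effects were -0.47, 0.14, 0.42 and -0.09. That of Ddit4 had an interval from -1.33 to 1.15.

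**Figure D3:**
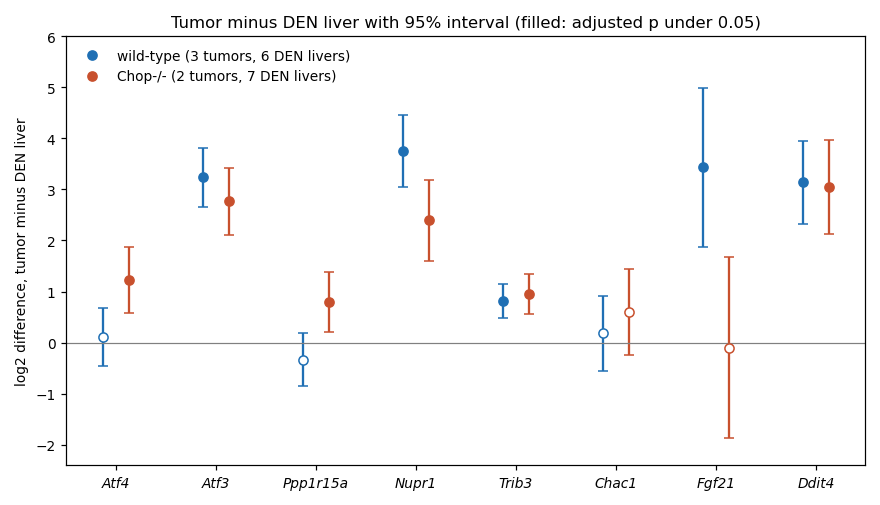
Log2 difference of tumors from DEN livers (y axis) for the 8 tested members (x axis), in wild-type and in Chop-/- mice, with 95% intervals from the linear model. Filled points passed an adjusted p of 0.05. Atf3, Nupr1, Trib3 and Ddit4 are filled in both genotypes, Fgf21 in wild-type, and Atf4 and Ppp1r15a in Chop-/-. Atf3 and Trib3 were detected in 0 of 19 livers, passed the filter through the tumors and had to differ. Their filled points are no test, and their sizes and intervals are measured from background.

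The 2 Chop-/- tumors also differed in what cells their RNA marked. Summed linear values of 3 neutrophil and monocyte markers (of 9 listed, 5 more with a probe below the filter) were 3320 in the letter C tumor, 260 in the letter B tumor, 198 to 226 in wild-type tumors and 105 to 349 in livers. For 9 of 10 endothelial markers the sums were 2300 and 3850 in the Chop-/- tumors (letters C and B), 4310 to 8300 in wild-type tumors and 4310 to 5950 in livers. Single markers went both ways: 3 of the 9 were higher and 3 lower in Chop-/- tumors than in Chop-/- DEN livers. Of all genes 19.1% were higher and 20.3% lower in that comparison. Sums over 13 of 15 hepatocyte markers were closer, at 184000 to 201000 in tumors and 196000 to 234000 in livers. Single hepatocyte markers also went both ways against DEN livers. In wild-type tumors 3 were higher and 3 lower, where 12.1% and 10.2% of all genes were, and in Chop-/- tumors 1 was higher and 3 lower. For 11 of 14 Kupffer cell and macrophage markers the sum was 7200 in the letter C and 3780 in the letter B tumor, against 3740 to 3890 in wild-type tumors. Of these 11, 2 were higher (Cd14 and Lyz2) and 5 lower in Chop-/- tumors than in Chop-/- DEN livers, and 3 of the lower ones (Cd163, Marco and Timd4) were not detected in the Chop-/- tumors, nor was the hepatocyte enzyme Tat. The part of these cells in the members' values was not tested.

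In livers without a tumor dissected, loss of CHOP and DEN changed no member past the threshold. Between Chop-/- and wild-type livers, 0 of 8 members passed with limma after PBS, where 0.0223% of all genes did, and 0 of 8 after DEN, also against 0.0223%. DEN against PBS livers gave 0 of 8 in wild-type, where 0% of all genes passed, and 0 of 8 in Chop-/- (0.0223%). The interaction of DEN and genotype gave 0 of 8 against 0% of all genes. At an unadjusted p under 0.05 there was 1 of 8 members between PBS livers (Fgf21), where 10.5% of all genes were past it, and 1 of 8 for DEN in Chop-/- livers (Ppp1r15a), against 7.92%, shares near the background. There were 0 members in the 3 other comparisons. No alternative fit gave a member an adjusted p under 0.05 in these 5 comparisons.

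Fgf21 was higher in all 3 Chop-/- PBS livers than in all 3 wild-type PBS livers, by 2.39 ± 0.87 (5.25-fold, 95% interval 0.58 to 4.20). The unadjusted p was 0.0118 and the adjusted p 0.414, and the exact permutation test gave p = 0.1, the smallest that 3 against 3 samples allow. Within the letters A, B and C the difference was 1.58, 3.06 and 2.54. Fgf21 was the 1 member that met the study's thresholds of more than 1.5-fold and p under 0.05 in this comparison, as did 2.92% of all genes in the higher direction. After DEN the difference was 0.29 (-0.94 to 1.52) and the genotypes overlapped. Chac1 and Ppp1r15a also did not overlap between PBS livers, at 0.41 and 0.48 higher in Chop-/- (adjusted p = 0.742 and 0.551), so that 3 of 8 members did not overlap there, where 14.7% of all genes did not. For Chac1 this was nearly a tie, with the highest wild-type value at 8.0893 and the lowest Chop-/- value at 8.0905. The count of 3 thus rests in part on that small gap.

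Kupffer cell and macrophage markers had a lower sum in these Chop-/- PBS livers, and 1 of the 11 tested, Adgre1, was lower past the threshold (by 1.61, adjusted p = 0.0495) and 0 were higher. The summed linear value was 1520 to 2290 in Chop-/- and 3880 to 4810 in wild-type PBS livers. Its part in the Fgf21 values was not tested.

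Ppp1r15a in Chop-/- livers was 0.51 lower after DEN than after PBS (95% interval -1.01 to -0.00389, unadjusted p = 0.0484, adjusted p = 0.622). In wild-type the same difference was -0.04. Fgf21 in wild-type livers was 1.41 higher after DEN (interval -0.16 to 2.97), with a spread of 1.24 (SD, n = 6) among DEN livers.

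Whether members varied together among livers of a group was read from deviations from the group means over 19 livers, for the 15 pairs among the 6 members detected in most livers. The closest pair was Fgf21 and Nupr1, with Pearson's r = 0.55 (permutation p = 0.023, adjusted over the 15 pairs 0.233) and Spearman's rho = 0.64 (p = 0.00438, adjusted 0.0657). Without the 2 livers farthest from the median of Fgf21 r was 0.57, and within the letters A, B and C it was 0.51, 0.80 and 0.69. Atf4 and its targets Chac1, Fgf21, Nupr1 and Ddit4 had r between -0.24 and 0.28. None of the 15 pairs passed after adjustment.

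Upstream of ATF4, 12 of 15 listed eIF2 kinases, subunits of eIF2 and its exchange factor eIF2B, and their regulators were tested. For this list and those that follow, the share of all genes against DEN livers is the background. It was 12.1% higher and 10.2% lower in wild-type tumors, and 19.1% higher and 20.3% lower in Chop-/- tumors. Against DEN livers 2 rose and 1 fell in wild-type tumors: Eif2ak3 (PERK, the kinase of the endoplasmic reticulum) by 0.94 and Eif2ak2 (PKR, the kinase activated by viral RNA) by 0.63 rose, and Eif2ak1 (HRI, the heme-regulated kinase) fell by 0.48. In Chop-/- tumors Eif2ak2 rose by 0.91, and Eif2ak1 and Eif2b4, a subunit of the eIF2 exchange factor, fell by 1.00 and 0.89. The list's median was -0.03 in wild-type and 0.14 in Chop-/-. With the letter C tumor left out, Eif2ak2 and Eif2b4 no longer passed in Chop-/-, and Eif2s2 (higher) and Ppp1r15b (lower) did. Among 9 bZIP partners of ATF4, Ddit3, Atf5 and Fos rose in wild-type tumors by 2.13, 0.88 and 2.37. In Chop-/- tumors Fos, Jun and Nfe2l2 rose (3.62, 1.18 and 0.75) and Cebpa, a hepatocyte transcription factor, fell by 1.36. Cebpa was not detected in the Chop-/- tumors, so the size of its fall is measured to background. Jun and Nfe2l2 no longer passed without the letter C tumor. Atf5, itself an ATF4 target, was 1.06 lower in Chop-/- than in wild-type tumors (adjusted p = 0.0136), a call also lost without the letter C tumor.

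Among ATF4 targets that supply amino acids, 15 of 20 were tested. In wild-type tumors 5 were higher and 2 lower than in DEN livers (median 0.29), where 12.1% and 10.2% of all genes were. Psat1 of serine synthesis rose by 3.88, Aldh18a1 of proline synthesis by 2.05 and the transporter Slc1a4 by 1.98, and Cth of cysteine synthesis fell by 1.83. In Chop-/- tumors 9 were higher and 3 lower (median 0.77), where 19.1% and 20.3% of all genes were. The median was 0.32 without the letter C tumor and 1.48 without the letter B tumor. The list's summed linear value was 13200 in the letter C tumor, 6350 in the letter B tumor and 6080 to 8200 in wild-type tumors. With both tumors Psat1 rose by 4.06 and Mthfd2 of mitochondrial folate metabolism by 1.20, while Shmt2, another enzyme of that pathway, fell by 1.35. The cystine transporter Slc7a11 was 4.02 higher. It was not detected in any liver, so it passed the filter through the tumors, had to differ, and its size is measured from background. Asparagine synthetase, Asns, was 2.18 higher in Chop-/- tumors than in Chop-/- DEN livers (adjusted p = 0.0229). This call and that of Slc7a11 were lost without the letter C tumor. Between tumors 0 of the 15 were higher in Chop-/-, and the glycine transporter Slc6a9 was 1.11 lower (adjusted p = 0.0256). Of all genes 4.43% were higher and 6.12% lower there. The list's median difference between tumors was -0.08 without the letter C tumor and 0.97 without the letter B tumor.

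Among tRNA synthetases and the tRNA exporter Xpot, 9 of 13 were tested. Of all genes 12.1% were higher and 10.2% lower than DEN livers in wild-type tumors, and 19.1% and 20.3% in Chop-/- tumors. In wild-type tumors 4 were higher than in DEN livers and 0 lower (median 0.35), namely Gars by 0.64, Lars by 0.57, Sars by 0.57 and Wars by 0.53. In Chop-/- tumors Gars rose by 0.48, and Aars and Mars1 fell by 1.38 and 0.55, and of these 3 Aars alone still passed without the letter C tumor. Mars1, whose gene lies next to Ddit3 in GRCm38.p6, was also 0.97 lower in Chop-/- than in wild-type DEN livers (adjusted p = 0.000514) and 1.27 lower in tumors. Of the other listed ATF4 or CHOP targets 9 of 14 were tested. In wild-type tumors 1 was higher than in DEN livers and 0 lower (median 0.44). In Chop-/- tumors 3 were higher and 1 lower (median 0.59), and without the letter C tumor that median was -0.0026. Eif4ebp1, a repressor of cap-dependent translation, rose in tumors of both genotypes, by 0.70 and 1.22. Herpud1, which acts in degradation from the endoplasmic reticulum, fell by 0.91 in Chop-/- tumors and was 1.02 lower there than in wild-type tumors (adjusted p = 0.00672), and neither call held without the letter C tumor.

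The ATF6 and IRE1 branches of the unfolded protein response, which do not need eIF2 phosphorylation, served for comparison, with 14 of 16 genes tested. In wild-type tumors 2 were higher than in DEN livers, the disulfide isomerase Pdia6 by 0.97 and the chaperone partner Dnajb9 by 0.99, and 0 were lower (median 0.31). Of all genes 12.1% were higher and 10.2% lower there. In Chop-/- tumors 3 were higher, Pdia6, Dnajb9 and Xbp1, and 1 was lower, Hyou1 (median 0.30), where 19.1% and 20.3% of all genes were. Hyou1 was 0.84 lower and was not detected in the Chop-/- tumors, so this size is measured to background. The Chop-/- median was 0.20 without the letter C tumor and 0.05 without the letter B tumor. No gene of this list passed between Chop-/- and wild-type tumors with limma.

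**Figure D4:**
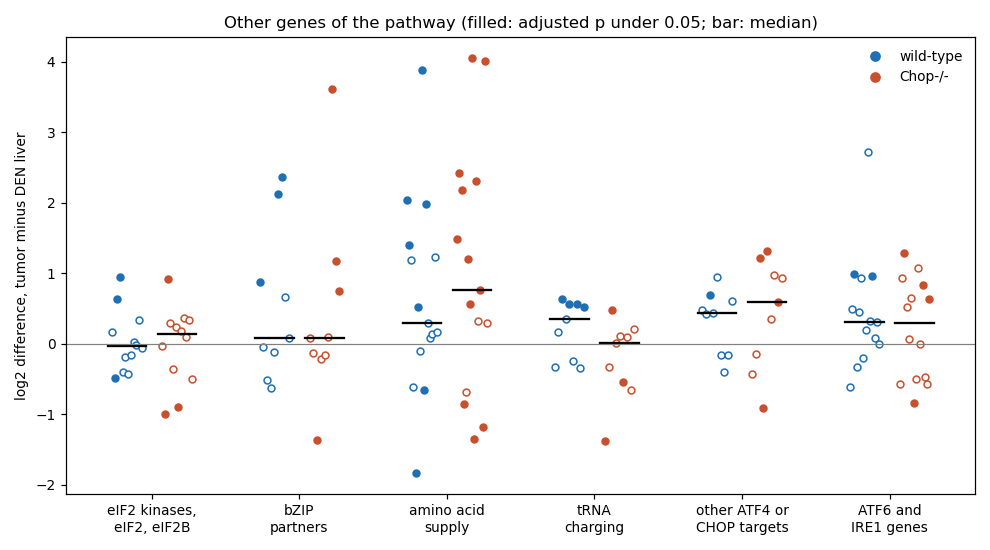
Log2 difference of tumors from DEN livers (y axis) for each tested gene of 6 lists around the pathway (x axis), in wild-type and Chop-/- mice. Filled points passed an adjusted p of 0.05, and bars give the list's median. The spread is widest among amino acid supply genes, whose medians are 0.29 and 0.77.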

How the data were processed

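Total RNA of whole livers and tumors was labelled and hybridized by the authors, 1 array a sample. The deposited intensities are bead averages exported with GenomeStudio 2011.1, already background subtracted (26.9% are negative) and of 1 distribution. The deposited detection p-values set a probe against the negative controls of its array. A table of log2 values, also deposited by the authors, served as an alternative. Array columns were assigned to groups through the array names in the study's own normalized table, which gives a group but no replicate number. The 48 columns of bead numbers and bead errors were not used. Signals were corrected by normexp from the detection p-values and quantile normalized with an offset of 16 (neqc, limma 3.58.1, R 4.3.3), which repeats a correction made before deposit. The brightest detected probe stood for a gene, with symbols updated through RefSeq gene identifiers. One linear model with a mean per group (6) took in the 24 arrays, with limma's moderated test and Benjamini-Hochberg adjustment over 8969 genes. Single values were also compared by exact permutation of samples. The fit was tested on simulated data. Members and lists were chosen with earlier results of these data known. Named genes are the members, Ddit3 and genes of the lists, foremost the 3 with the smallest p in a comparison; others were named after their values were seen. Leaving out each array and 13 other settings were the alternatives. The lists without each Chop-/- tumor were added after seeing the data. The number of arrays limits the precision.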

Additional observations from a re-analysis of the deposited data

Results flagged for a closer look

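Among 16 groups of 6 or 7 samples examined for 8 members, 1 held a sample far from the rest by Dixon's ratio, and chance flags about 1 in 20 such groups. Nupr1 in 1 wild-type DEN liver, on an array of letter B, had a log2 value of 5.45, where the 5 others lay between 5.94 and 6.12. The gap made up 0.732 of the group's range. That array did not detect Nupr1.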

How the results depend on the processing

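The rises of Nupr1, Fgf21 and Ddit4 in wild-type tumors over DEN livers passed under every alternative run. On deposited log2 values these log2 differences were smaller, at 2.60, 2.81 and 2.03, and those of Atf3 and Trib3 were 1.59 and 0.27, below the bounds of the report. Leaving out 1 array moved the members that differed between Chop-/- and wild-type tumors over 0 to 4 and those with a tumor effect by genotype over 0 to 3, and the Fgf21 difference between DEN livers over -0.11 to 0.70, reversed without 1 letter C Chop-/- DEN liver. Between tumors, fitting those 2 groups alone, an equal-variance test without moderation and array weights gave 0 members against 2. The array letter as a fixed block gave 1 (Ppp1r15a). The unmoderated test also gave 0 members against 5 in wild-type and in Chop-/- tumors over PBS livers. The authors' log2 values gave 1 member with a tumor effect by genotype (Nupr1). At more than 1.5-fold and unadjusted p under 0.05 the counts were 1 between PBS livers, 4 between tumors and 4 for the tumor effect by genotype, where 2.92% (higher alone), 20.4% and 18.9% of all genes passed. The cause of these changes was not tested.

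The replicate numbers of the labels did not pair the samples: deviations of same-numbered samples correlated at a median of 0.03 (-0.20 to 0.38), and those of others at -0.01. With the replicate block, on the authors' log2 values, 1 member (Nupr1) differed between tumors, with Fgf21 at -2.50 and Ppp1r15a at 0.75. Chop-/- and wild-type tumors shared 1 array letter, B, with 1 tumor of each genotype. Within it the Chop-/- minus wild-type values were -1.66 for Fgf21, 0.70 for Ppp1r15a and -1.38 for Nupr1. For Atf4 and Ddit4 they were -0.48 and -1.22, opposite in sign to the differences over all tumors (0.84 and 0.16). The other tested members kept their sign.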

Other observations

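Genes most like a member were ranked by Pearson's r of the log2 values over the 24 arrays, which share the split into tumors and livers, and the values are descriptions. Nupr1 was closest to Gars, the glycine tRNA synthetase (Pearson's r = 0.95, and 0.67 over the 19 livers alone), and to Aldh18a1 of proline synthesis (0.94 and 0.63). Ddit4 and Atf3 were both closest to Mmp13, a collagenase (r = 0.95 and 0.94), and over livers alone these were 0.35 and 0.07. Ppp1r15a was closest to Pfkl, the liver phosphofructokinase (0.84, and 0.75 over livers). Fgf21 had no gene above 0.78 (Otud7b), and Chac1 none above 0.71 (Srsf1).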
